A study of Mus musculus with 9 samples.

Results

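The genes of the motile cilium, and 5 genes that mark the ependymal cells carrying it, were followed in 9 single cells from the paraventricular nucleus region of the mouse hypothalamus. Members were the rows of the deposited table whose symbols begin with Dnah and a digit, Dnaic, Dnali, Cfap, Tekt, Rsph, Spag, Spef, Ift or Bbs, together with Dbi, Tmem212, Ccdc153, Rarres2 and Foxj1. This gave 64 of 23528 symbols in 65 rows, as Spag16 has 2 numbered loci. There were 38 axonemal genes, 21 transport genes and 5 ependymal markers, and no symbol used here began with Cfap. Of the 64 members, 51 had at least 1 molecule in some cell and 13 had none. The ependymal markers were picked with the counts of cell 8 already known, so what these 5 show is a description of how they were chosen. The other members, and the comparison of cell 8 with the rest, were also chosen with earlier results of these data known. All cells bear the same label, secretagogin+ cell, and came from C57Bl6/N mice of 21 to 28 days, captured on a microfluidic chip after papain dissociation. The labels do not tie cells to animals, and the 9 cells therefore count as 1 sample. Cells are not replicates of a condition here, and the text gives no p-values.

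A motile cilium beats because dynein motors, set in outer and inner arms along the microtubule doublets, slide the doublets past each other. Radial spokes and the central pair apparatus regulate that sliding, and tektins are filamentous proteins of the axonemal microtubules. Ift genes encode the trains of intraflagellar transport, and Bbs genes encode the BBSome and its assembly factors, which move membrane proteins. Transport of this kind builds primary cilia too, and most neurons carry a primary cilium. Ependymal cells line the ventricles of the brain, the third ventricle beside the paraventricular nucleus among them, and bear tufts of motile cilia. Foxj1 is the transcription factor that drives the motile cilium programme.

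Depth differed widely between the cells and limits what a count of 0 shows. Cell 8 held 13176 gene molecules and the other cells 1021 to 26466, so that cell 8 contributed 14.4% of the 91370 gene molecules of the table. Each level is given per 10000 gene molecules counted in the same cell, and intervals are exact 95% intervals that cover counting error only. A count of 0 allows up to 2.28 per 10000 in cell 8 (3 molecules), against 1.13 in cell 5, 8.84 in cell 6 and 29.4 in cell 1. Added spike-in RNAs gave 2181 molecules in cell 8, 1962 to 2184 in the other 7 cells of the same lane, and 614 in cell 9, the only cell of another lane.

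The ependymal markers lay almost wholly in cell 8. Dbi, on chromosome 1 at 120113280 to 120121078 (GRCm38), encodes the acyl-CoA-binding protein, also called diazepam-binding inhibitor, which glia and ependymal cells hold in quantity. It had 231 molecules in cell 8, while cells 5 and 4 had 17 and 6 and the remaining 6 cells had none. Its level was 175 per 10000 in cell 8 (interval 153 to 199), 59.6 times that of the other 8 cells pooled (interval 38.8 to 95.9). Without cell 5, which holds most of the other Dbi molecules, the ratio was 151. Tmem212, on chromosome 3 at 27866066 to 27896368, encodes a transmembrane protein and had 25 molecules in cell 8 and none elsewhere. Ccdc153, on chromosome 9 at 44240676 to 44247306, encodes a coiled-coil protein and had 24 molecules in cell 8 and none elsewhere. Rarres2, on chromosome 6 at 48569696 to 48572789, encodes the secreted protein chemerin and had 20 molecules in cell 8 and none elsewhere. With 3 molecules set as the limit for the other 8 cells together, these 3 genes were 49.5-fold, 47.5-fold and 39.6-fold higher in cell 8. Such ratios take the count of cell 8 as exact and have no interval, so they are not lower bounds. Without cell 5, the deepest cell, the same limit gave 32.7-fold, 31.4-fold and 26.2-fold. Rarres2 shares 892 exonic bases with Lrrc61 on the opposite strand, and Lrrc61 had no molecule in any cell.

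Foxj1, on chromosome 11 at 116330704 to 116335399, did not separate the cells in that way. Cell 8 had 3 molecules, cells 3 and 4 had 2 each, and the remaining 6 cells had none. The level in cell 8 was 2.28 per 10000 (interval 0.470 to 6.65), and the ratio to the other cells pooled was 4.45 with an interval of 0.652 to 26.3. The ratio was 7.68 without cell 3, 7.53 without cell 4 and 2.94 without cell 5. Without cell 5 Foxj1 no longer met the rule for a higher level that is given below. Cells 3 and 4 had no molecule of Tmem212, Ccdc153 or Rarres2.

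**Figure D1:**
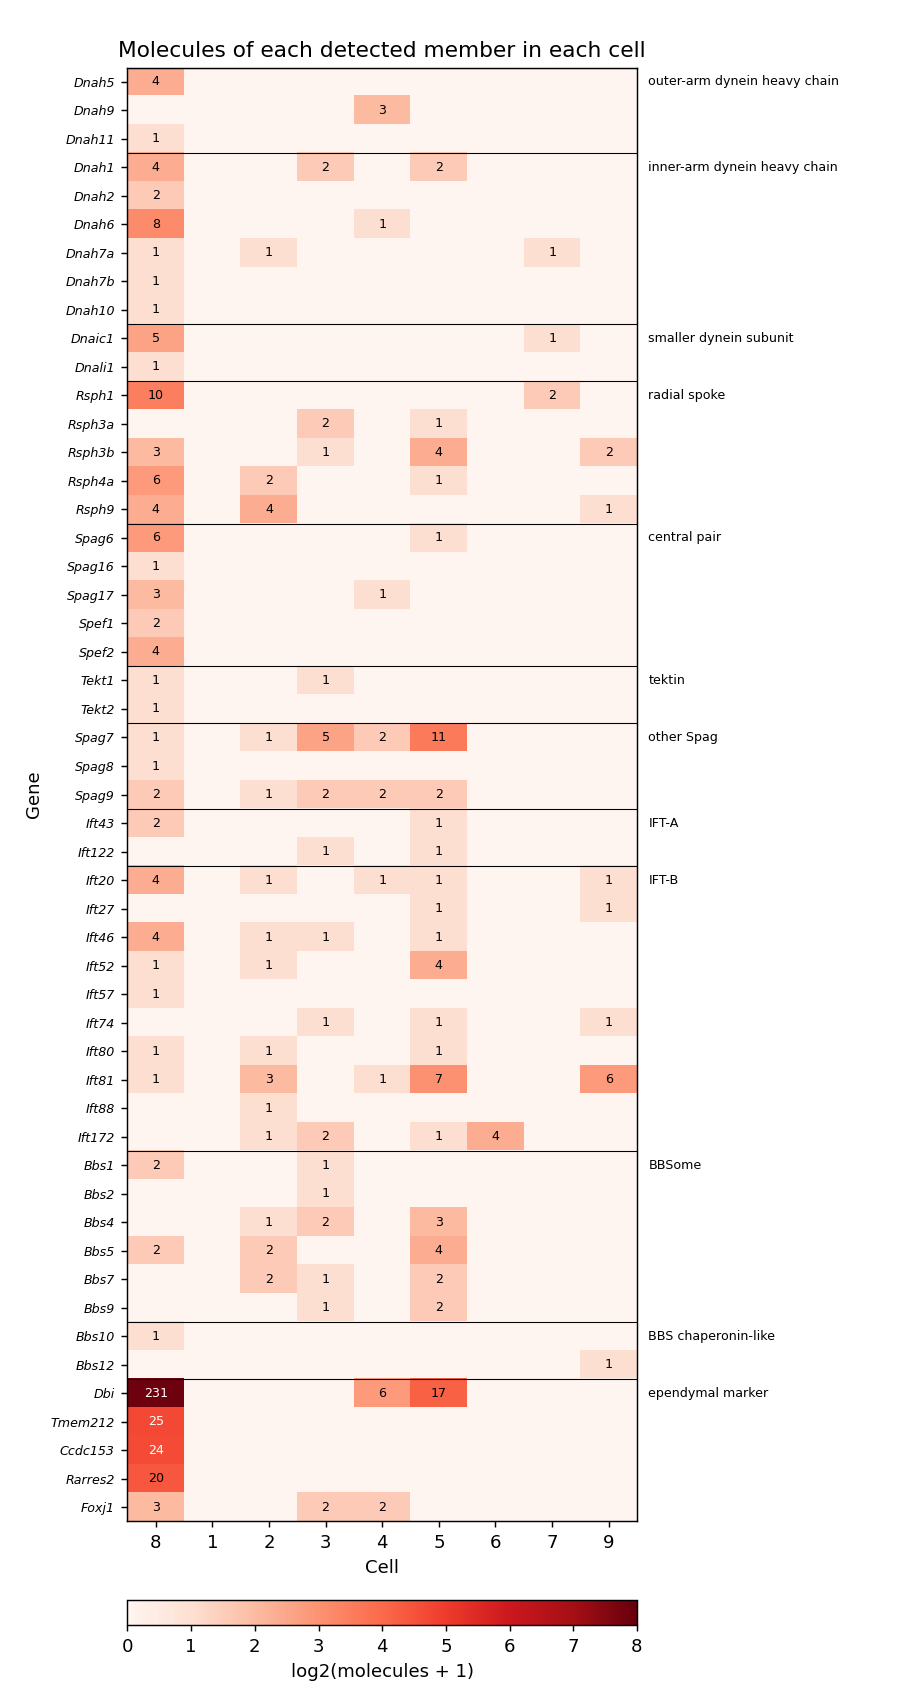
Molecules of the 51 detected members (rows, grouped by role) in each cell (columns, cell 8 first), with colour giving log2(molecules + 1) and the number printed where it is above 0. The dynein and central pair rows are filled mainly under cell 8, while 10 of the Ift and Bbs rows are filled under cell 8, 10 under cell 2, 9 under cell 3 and 14 under cell 5.

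Among the dynein heavy chains, the large motor subunits that pull on the doublets, the 6 inner-arm members were all detected in cell 8. They had 17 molecules there in sum, against 7 molecules of 3 genes in the other 8 cells. Dnah6, on chromosome 6 at 73017606 to 73221651, had 8 molecules in cell 8 and 1 in cell 4, a ratio of 47.5 (interval 6.37 to 2107). The ratio was 31.4 without cell 5, and 13.4 without cell 4, with 3 molecules set as the limit for the remaining cells. For Dnah1 cell 8 had 4 molecules and cells 3 and 5 had 2 each. Dnah2 had 2 molecules, all in cell 8. Dnah7a, Dnah7b and Dnah10 had 1 each in cell 8. Dnah7a also had 1 in each of cells 2 and 7, and since it is nearly identical to Dnah7b the split between the pair is uncertain.

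Of the 5 outer-arm heavy chains, 2 were detected in cell 8. Dnah5, on chromosome 15 at 28203752 to 28472052, had 4 molecules in cell 8 and none elsewhere. With 3 molecules set as the limit for the other cells its ratio was 7.91, or 5.23 without cell 5. Dnah11 had 1 molecule, also in cell 8. Dnah9, the other outer-arm heavy chain with any molecule, went the other way, with 3 in cell 4 and none in cell 8 or the other 7 cells. Dnah8 and Dnah17, which are known mainly from sperm, had no molecule in any cell.

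Smaller dynein subunits followed the inner-arm genes. Dnaic1, an outer-arm intermediate chain on chromosome 4 at 41569775 to 41638158, had 5 molecules in cell 8 and 1 in cell 7, a ratio of 29.7 (interval 3.32 to 1403). The ratio was 19.6 without cell 5, and 8.99 without cell 7, with 3 molecules set as the limit for the remaining cells. Its exons share 15 bases with Enho on the opposite strand, which had 1 molecule in cell 8 and none in cell 7. Dnali1, an inner-arm light intermediate chain, had 1 molecule, in cell 8. Dnaic2, the partner of Dnaic1 in the outer arm, had none in any cell.

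The radial spoke genes had 23 molecules in cell 8 and 20 in the other 8 cells, or 17.5 and 2.56 per 10000, a ratio of 6.82 (interval 3.58 to 13.1). Of their 6 genes, 4 were detected in cell 8. Rsph1, a spoke head protein on chromosome 17 at 31255019 to 31277383, had 10 molecules in cell 8 and 2 in cell 7, a ratio of 29.7 (interval 6.32 to 279). The ratio was 19.6 without cell 5, and 17.97 without cell 7, with 3 molecules set as the limit for the remaining cells. Rsph4a, another spoke head protein, had 6 in cell 8, while cells 2 and 5 had 2 and 1, a ratio of 11.9 (interval 2.53 to 73.3), or 31.2 without cell 2. Rsph9, also of the spoke head, had 4 in cell 8, while cells 2 and 9 had 4 and 1. Because cell 2 is shallower, the level of Rsph9 was higher in cell 2 than in cell 8. The stalk genes Rsph3b and Rsph3a, near-identical copies between which reads can be split, had 3 and 0 molecules in cell 8 and 7 and 3 in the other cells. Their level in cell 8 was not the highest of the 9 cells for either copy. Rsph6a, known from sperm, had none.

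The 5 central pair members were all detected in cell 8 and had 88.9% of their molecules there (interval 65.3 to 98.6%). Their sum was 16 molecules in cell 8, against 2 molecules in the other 8 cells. Spag6, on chromosome 2 at 18694032 to 18750413, had 6 molecules in cell 8 and 1 in cell 5, a ratio of 35.6 (interval 4.32 to 1638). Without cell 5 the ratio of Spag6 was 7.85, with 3 molecules set as the limit for the remaining cells. Spef2 had 4 molecules, all in cell 8, and by the same limit its ratio was 7.91, or 5.23 without cell 5. Spag17 had 3 in cell 8 and 1 in cell 4. Its exons share 820 bases with Wdr3 on the opposite strand, and Wdr3 had no molecule in cell 8 or cell 4. Spef1 had 2 and Spag16 had 1 molecule, all in cell 8. Spef1 shares 20 exonic bases with Cenpb on the same strand, and Cenpb had 1 molecule, in cell 8. The 2 loci of Spag16 each list that 1 molecule and were counted as 1 gene.

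Tektins were near the limit of detection. Tekt1 had 1 molecule in each of cells 8 and 3, Tekt2 had 1 in cell 8, and Tekt3, Tekt4 and Tekt5 had none in any cell.

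The remaining Spag genes matched the rule by name and did not share the pattern. Their sum was 4 molecules in cell 8 and 26 in the other 8 cells, or 3.04 per 10000 (interval 0.827 to 7.77) and 3.33 per 10000 (interval 2.17 to 4.87). Spag7 had 1 molecule in cell 8 and 11, 5, 2 and 1 in cells 5, 3, 4 and 2. Spag9, which encodes a scaffold protein of JNK signalling, had 2 each in cells 8, 3, 4 and 5 and 1 in cell 2. Spag8 had 1 molecule, in cell 8. Spag1, Spag4, Spag5, Spag11a and Spag11b had none.

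Summed over all 38 axonemal genes, cell 8 held 73 molecules and the other cells 0 to 22. The level was 55.4 per 10000 in cell 8 (interval 43.4 to 69.7), while cells 2, 3, 4, 5, 7 and 9 had 9.40, 12.1, 7.49, 8.31, 5.59 and 3.83 per 10000, and cells 1 and 6 had 0. The interval of cell 8 lay above the interval of each of the other 8 cells. Against the other 8 cells pooled, at 7.67 per 10000 (interval 5.86 to 9.88), the ratio was 7.22 (interval 5.06 to 10.3). Without Spag5, Spag7 and Spag9, whose proteins are known outside the axoneme, the ratio was 12.2 (interval 8.00 to 18.99). Cell 8 held 54.9% of the 133 axonemal molecules (interval 46.0 to 63.5%), against its 14.4% of all gene molecules.

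**Figure D2:**
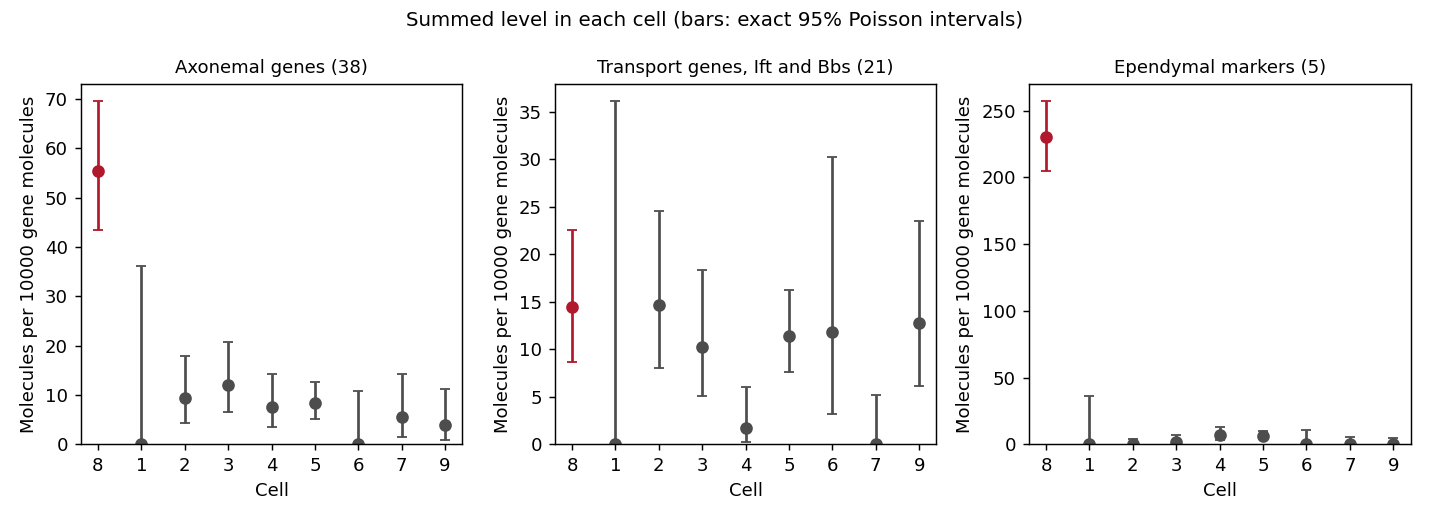
Summed level of the 38 axonemal genes, the 21 transport genes and the 5 ependymal markers in molecules per 10000 gene molecules (y axis) for each cell (x axis, cell 8 first, in red), with exact 95% Poisson intervals. Cell 8 stands above the other cells for axonemal genes (55.4 against at most 12.1) and markers (230 against at most 6.65), and within their range for transport genes (14.4 against 0 to 14.6).

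The transport genes in cell 8 lay within the range of the other cells. Their sum was 19 molecules in cell 8, or 14.4 per 10000 (interval 8.68 to 22.5). Cells 2, 3, 4, 5, 6 and 9 had 14.6, 10.3, 1.66, 11.3, 11.8 and 12.8 per 10000, and cells 1 and 7 had 0. Cells 4 and 7 were low at a depth close to that of cells with more. Endothelial markers had 120 and 54 molecules in cells 4 and 7 and at most 3 in any other cell, and whether this bears on the low transport level was not tested. Against the other cells pooled, at 9.08 per 10000 (interval 7.09 to 11.5), the ratio of cell 8 was 1.59 (interval 0.904 to 2.66). Equal levels lie within this interval. With levels scaled by spike-in molecules the ratio was 1.86 and its interval, 1.06 to 3.13, did not include equal levels. Cell 8 held 21.1% of the 90 transport molecules (interval 13.2 to 31.0%).

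The 10 members of IFT-B, the train that carries cargo towards the ciliary tip, were all detected in some cell. The symbol rule takes only subunits named Ift or Bbs, so these groups do not cover whole complexes. Their sum was 12 molecules in cell 8 and 45 in the other 8 cells. Ift20, which also has a role at the Golgi, had 4 molecules in cell 8, while cells 2, 4, 5 and 9 had 1 each, a ratio of 5.93 (interval 1.11 to 31.9). Ift46 had 4 in cell 8, while cells 2, 3 and 5 had 1 each, a ratio of 7.91 (interval 1.34 to 54.0). Ift81, a tubulin-binding subunit, had 1 molecule in cell 8, while cells 2, 4, 5 and 9 had 3, 1, 7 and 6. Ift172, the largest subunit, had none in cell 8, while cells 2, 3, 5 and 6 had 1, 2, 1 and 4. Ift27, Ift74 and Ift88 also had no molecule in cell 8, and at most 1 in any other cell. Ift52 had 1 in cell 8 and 4 in cell 5, Ift80 had 1 each in cells 8, 2 and 5, and Ift57 had 1, in cell 8.

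The 3 members of IFT-A, the train that returns from the tip, had few molecules. Ift43 had 2 in cell 8 and 1 in cell 5, Ift122 had 1 each in cells 3 and 5, and Ift140 had none in any cell. The 6 BBSome subunits among the members had 4 molecules in cell 8 and 22 in the other 8 cells, or 3.04 and 2.81 per 10000. Bbs1 had 2 in cell 8 and 1 in cell 3. Bbs5 had 2 in cell 8, while cells 2 and 5 had 2 and 4. Bbs2, Bbs4, Bbs7 and Bbs9 had none in cell 8 and lay in cells 2, 3 and 5. Of the chaperonin-like factors that assemble the BBSome, Bbs10 had 1 molecule in cell 8 and Bbs12 had 1 in cell 9.

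**Figure D3:**
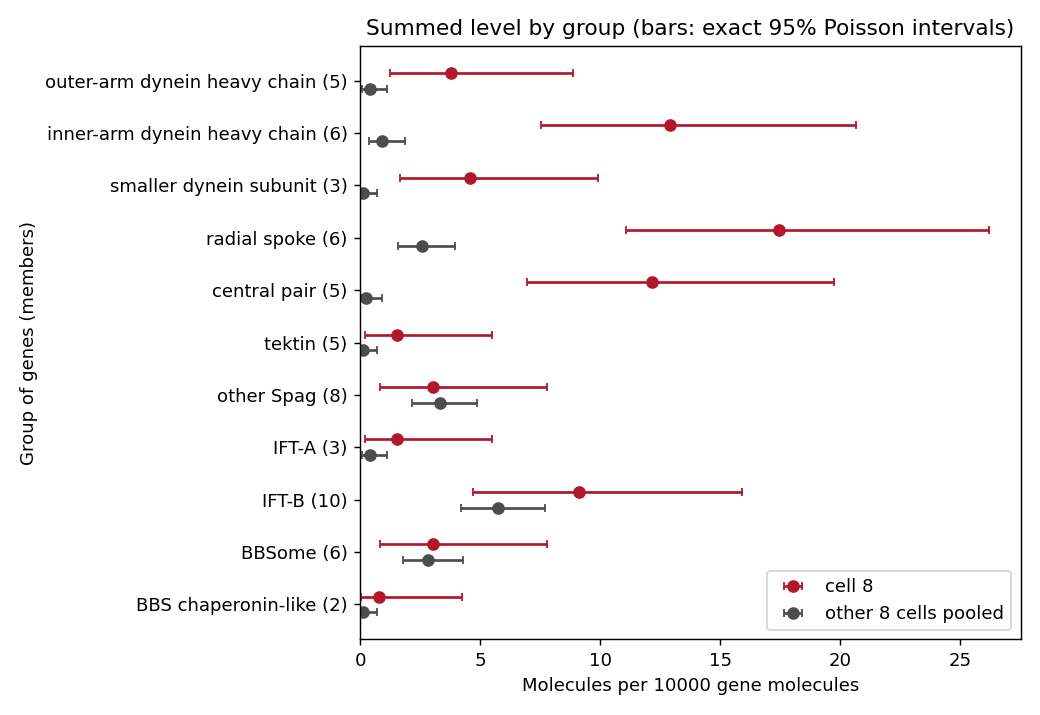
Summed level of each group of genes (y axis, with its number of members) in molecules per 10000 gene molecules (x axis) in cell 8 (red) and in the other 8 cells pooled (grey), with exact 95% Poisson intervals. The intervals are apart for the dynein heavy chains of both arms, the smaller dynein subunits, the radial spokes and the central pair, and overlap for tektins, the other Spag genes and all 4 transport groups.

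The classes were also compared within cells, where no library total enters. Axonemal genes made up 79.3% of the 92 axonemal and transport molecules of cell 8 (interval 69.6 to 87.1%) and 45.8% of the 131 such molecules of the other 8 cells (interval 37.1 to 54.7%). Those other cells were not alike. Cells 2, 3, 5 and 9 had shares of 39.1%, 54.2%, 42.3% and 23.1%, cell 6 had 0 of 4 molecules, cell 4 had 81.8% of 11 molecules, and cell 7 had 100% of 4 molecules. The intervals of cells 4 and 7 (48.2 to 97.7% and 39.8 to 100%) include the share of cell 8, so the share by itself did not set cell 8 apart from them. Without Spag5, Spag7 and Spag9 the share was 78.7% in cell 8 and 32.4% in the other 8 cells (interval 23.6 to 42.2%).

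Detection gave the same division. In cell 8, 24 of the 38 axonemal genes (63.2%) and 10 of the 21 transport genes (47.6%) had at least 1 molecule, while 17.5% of all symbols, and 42.2% of those detected in any cell, were detected in cell 8. The other cells held 0 to 7 axonemal genes and 0 to 14 transport genes, the most in cell 5, which is also the deepest. To set the cells on an equal depth, the number of genes expected after thinning each cell to 7160 molecules was computed, which leaves out the 2 shallowest cells. For axonemal genes it was 18.4 in cell 8 and 1.91 to 5.00 in the other 6 cells. For transport genes it was 7.00 in cell 8 and 0 to 8.09 in the other 6 cells, with cell 2 above cell 8. In cell 8 alone 11 of 38 axonemal genes and 2 of 21 transport genes were detected, against 3.26% of all symbols and 7.86% of the symbols detected in any cell. Only outside cell 8 were 2 of the 26 detected axonemal genes and 10 of the 20 detected transport genes found. Of the symbols detected in any cell, 42.2% were detected in cell 8 and the rest only outside it. The transport count is near that rest, and nothing is read from it.

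**Figure D4:**
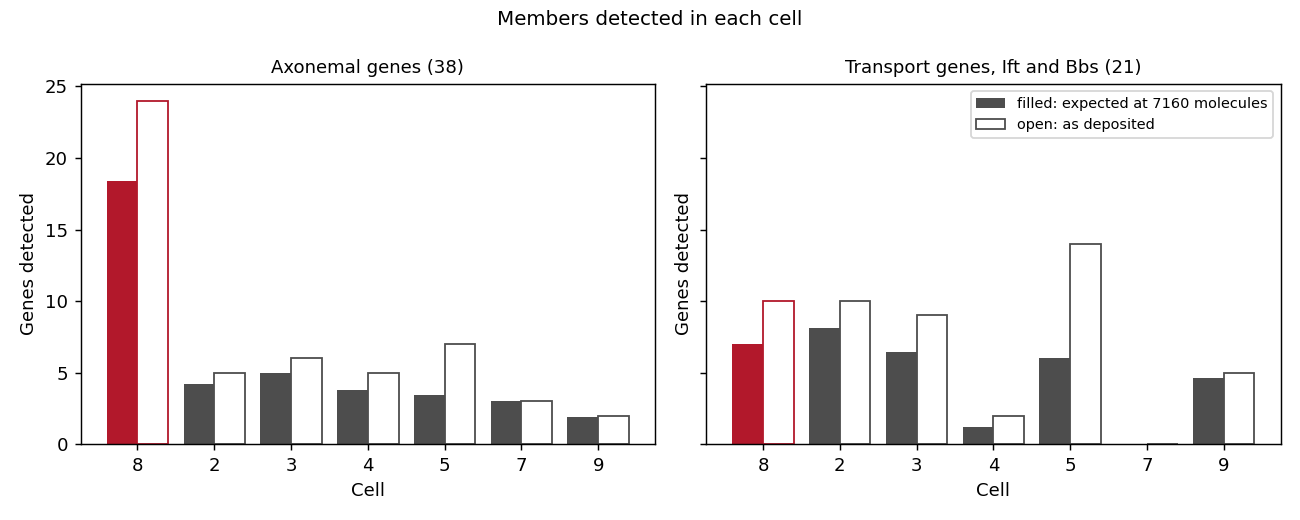
Number of axonemal genes (left) and transport genes (right) detected in each cell (cell 8 first, in red), from the deposited counts (open bars) and after thinning to 7160 molecules (filled bars, expected number), for the 7 cells of at least that depth. Cell 8 is highest for axonemal genes (18.4 against at most 5.00 after thinning), and cell 2 for transport genes (8.09 against 7.00 in cell 8).

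A gene was counted as higher in cell 8 when it had at least 2 molecules there and at least 3 times the pooled level of the other cells, with a pooled count below 3 set to 3. By this rule 21 of the 64 members were higher: 12 of 38 axonemal genes (31.6%), 4 of 21 transport genes (19.05%) and, by the way they were chosen, all 5 markers. The same rule called 3.27% of all symbols, and 10.4% of the 7398 symbols with at least 2 molecules. Axonemal and transport genes were also chosen with earlier results of these data known, so their shares are a description. Of the 38 axonemal genes 19 reached 2 molecules, and of the 21 transport genes 15 did. The 4 transport genes were Ift20, Ift46, Ift43 and Bbs1, the last 2 on 2 molecules each in cell 8. When at least 3 molecules in cell 8 were required, 17 members remained above the fold. Without cells 4, 5 and 7, which carry markers of other cell types, 14 members were above it. Without cell 5 alone the number was 17: Bbs1, Dnah2, Foxj1, Ift43 and Spef1, each with 2 or 3 molecules in cell 8, no longer met the rule, and Rsph3b met it. Rsph3b also met it without cell 9, with 22 members in all. A smaller pool makes the limit of 3 molecules stand for a higher level. Without cell 5, or without cells 4, 5 and 7, genes with 2 molecules in cell 8 therefore fail by construction. Without cells 4, 5 and 7 the same holds for genes with 3.

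Promoters of members were read for the X-box, the site bound by RFX factors, which act with Foxj1 on ciliary genes. Windows from 250 bases before to 50 after the start site, taken from RefSeq (GRCm38.p6), were held for 54 of the 64 members, in 59 promoters. An X-box on either strand was found in 9 of these 59 promoters (15.3%) and in 1.53% of all 32851 promoters of the same length. It lay in 7 of 37 axonemal promoters (18.9%), 2 of 18 transport promoters (11.1%) and none of 4 marker promoters. Tekt2 counts with 2 overlapping promoters that hold the same X-box. By gene an X-box was found for 8 of 54 members, with 6 of 33 axonemal genes among them, and for 474 of all 27025 symbols. The letters GTTGCC, a half-site that many but not all X-boxes hold, were found on either strand in 37.3% of member promoters and 12.5% of all promoters. Of the 22 member promoters with this half-site, 8 also held an X-box, which the half-site overlaps. The forkhead letters TGTTTA were found on either strand in 22.0% of member promoters and 13.4% of all. They were found in 27.0% of axonemal and 11.1% of transport promoters. None of the 9 member promoters with an X-box held them, while 47 of the 502 X-box promoters of the whole set did. The member count is near that share, and nothing is read from it. A match is a description of the letters, and the data hold no measurement of binding.

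An X-box stood both in promoters of genes concentrated in cell 8 and in promoters of others, and 4 are shown to set these side by side. Dnaic1 (chr4:41569544-41569843, plus strand) and Spef2 (chr15:9748819-9749118, minus strand) had nearly all or all of their molecules in cell 8. Rsph3b (chr17:6948307-6948606, minus strand) was found in 4 cells. Bbs1 (chr19:4906578-4906877, minus strand) is a transport gene with 2 molecules in cell 8 and 1 in cell 3. Capitals mark the X-box.
Dnaic1: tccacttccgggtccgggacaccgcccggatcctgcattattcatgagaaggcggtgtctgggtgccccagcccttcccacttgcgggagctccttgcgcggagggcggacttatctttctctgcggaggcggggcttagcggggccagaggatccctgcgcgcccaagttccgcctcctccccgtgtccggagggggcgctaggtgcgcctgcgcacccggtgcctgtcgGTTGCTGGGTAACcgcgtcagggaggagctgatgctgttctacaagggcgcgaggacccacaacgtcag
Spef2: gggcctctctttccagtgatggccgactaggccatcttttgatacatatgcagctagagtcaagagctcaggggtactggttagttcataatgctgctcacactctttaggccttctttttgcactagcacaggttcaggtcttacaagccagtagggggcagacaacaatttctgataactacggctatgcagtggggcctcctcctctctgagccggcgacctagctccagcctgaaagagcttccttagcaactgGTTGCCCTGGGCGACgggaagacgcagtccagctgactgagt
Rsph3b: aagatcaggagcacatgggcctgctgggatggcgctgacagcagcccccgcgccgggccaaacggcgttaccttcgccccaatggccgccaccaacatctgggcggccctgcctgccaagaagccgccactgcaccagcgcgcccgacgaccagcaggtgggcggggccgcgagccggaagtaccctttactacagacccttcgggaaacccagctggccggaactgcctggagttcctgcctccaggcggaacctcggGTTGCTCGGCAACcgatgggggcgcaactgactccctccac
Bbs1: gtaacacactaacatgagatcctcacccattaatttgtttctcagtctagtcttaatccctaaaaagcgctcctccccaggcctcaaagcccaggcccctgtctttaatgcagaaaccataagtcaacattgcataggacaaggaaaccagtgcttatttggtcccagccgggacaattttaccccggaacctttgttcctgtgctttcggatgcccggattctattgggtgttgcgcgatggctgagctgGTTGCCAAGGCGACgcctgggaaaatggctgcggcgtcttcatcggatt
In Dnaic1 the box ends 6 bases before the start site, while in Spef2, Rsph3b and Bbs1 it lies after it. Dnah6, Spag17 and Rsph9, all counted as higher in cell 8, had no X-box in their windows.

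Other genes of the motile cilium, listed from general knowledge of ciliary genes with the identity of cell 8 already known, were also higher in cell 8. Among 67 such genes that the table lists, 48 were detected in cell 8, 34 were counted as higher there (50.7%), and 9 had no molecule in any cell. Their summed level was 187 per 10000 in cell 8 (interval 165 to 212) and 5.59 to 30.3 in the other cells. Dynlrb2, a dynein light chain, had 19 molecules in cell 8 and none elsewhere. Riiad1 had 23 in cell 8, while cells 2, 3 and 9 had 1, 2 and 2. Fam183b had 19 in cell 8, while cells 3 and 5 had 4 and 1. Tppp3, a tubulin polymerization factor also made by other brain cells, had 18 in cell 8, and 18, 11 and 6 in cells 5, 2 and 3. Hydin, a central pair protein, had 3, and Dnaaf1 and Ccdc40, needed for dynein assembly and for the spacing of axonemal units, had 4 each, all in cell 8. Another 10 of the 58 genes of the list with any molecule were found only outside cell 8. Over all symbols detected in any cell, all but 42.2% were. Among the 10 were the dynein assembly genes Dnaaf2 with 4 molecules, Zmynd10 with 2, and Dnaaf3, Lrrc6 and Heatr2 with 1 each.

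Regulators of multiciliation were sparse. Of 18 listed genes 7 were detected in cell 8 with 10 molecules in all, and 2 were counted as higher there, Foxj1 and Myb. Myb, which acts early in multiciliated cells, had 2 molecules, both in cell 8. Rfx3 had 1 in cell 8, while cells 2 and 3 had 1 and 2, and Rfx1 and Rfx4 had 1 each, in cell 8. Mcidas and Gmnc, which start the programme, and Rfx2 had no molecule in any cell.

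A list of 41 further transport and transition zone genes resembled the Ift and Bbs genes. Its level was 35.7 per 10000 in cell 8 (interval 26.2 to 47.4) and 30.3 in the other cells pooled (interval 26.6 to 34.4), a ratio of 1.18 (interval 0.842 to 1.62), with 7 genes (17.1%) counted as higher in cell 8. Tmem107, a transition zone protein, had 7 molecules in cell 8, while cells 2, 3 and 9 had 1 each. Kif3a, a motor subunit of the anterograde train, had 4 in cell 8, while cells 2 and 5 had 12 and 11 and the others 5 or fewer. Ahi1, a transition zone protein abundant in hypothalamic neurons, had 4 in cell 8, while cell 5 had 34 and cells 2 and 3 had 22 each. Of 14 genes of the neuronal primary cilium, 2 were detected in cell 8 (14.3%). This is near the 17.5% of all symbols detected there, and nothing is read from the count. Rab23 had 2 molecules there and none elsewhere, and Tub had 1 there and 1 each in cells 2, 3, 5 and 9. Adcy3, the adenylyl cyclase of neuronal cilia, had none in cell 8 and 2 in the others.

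The label of the cells was set against cell type markers. In cell 8 all 10 ependymal markers of a wider list were detected, at 272 per 10000 (interval 244 to 301), against 0 to 33.3 in the other cells. Of the 358 molecules of this list in cell 8, 303 were of the 5 markers picked with its counts known. The level is therefore largely a description of that choice. The 5 genes of the list outside the members included Mia with 16 molecules and Enkur with 14, all in cell 8. The others were Fam183b, 1110017D15Rik with 2 in cell 8 and 1 in cell 2, and Pltp. Enkur, Fam183b and 1110017D15Rik also belong to the list of other motile cilium genes above, so their molecules count in both lists. Pltp, which endothelial cells also express, had 4 in cell 8 and 32 in cell 4 and made up most of that cell's ependymal sum of 40.

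Markers of other cell types also differed in cell 8, where 17.5% of all symbols were detected. Of 10 astrocyte markers 5 were detected there with 36 molecules, 27.3 per 10000 against 0 to 5.82 in the other cells. Among them Gja1 had 10, Aqp4 8 and Sox9 7 molecules in cell 8, and Gfap, Gjb6 and Aldoc had none there. Several of these genes are known from ependymal cells as well. Of 10 neuron markers 5 were detected in cell 8 with 16 molecules, 12.1 per 10000 against 5.82 to 80.9 in the other cells, with Snap25, Syt1, Syp, Rbfox3 and Nefl at 0. Of 10 tanycyte markers 2 were detected (Nes and Vcan, 1 molecule each), with Rax at 0. That share, 20%, is near the share of all symbols, and nothing is read from it. Of 8 choroid plexus markers, genes of another multiciliated epithelium, 3 were detected in cell 8 and in no other cell, with 2 molecules of Otx2, 2 of Clic6 and 1 of Ttr, and Otx2 and Clic6 were counted as higher there. The list had 5 molecules in cell 8 and 2 in the other 8 cells, both of Prlr, a ratio of 14.8 (interval 2.43 to 156). Folr1, Kl, Kcne2 and Aqp1 were at 0 in all 9 cells. Oligodendrocyte markers had 1 molecule in cell 8, and endothelial, blood and microglia markers none. Scgn, by which the cells are labelled, had 3 molecules in cell 8 and 11 in cell 3. It had 1 each in cells 2, 5 and 9 and none in the rest. Crh had 2 each in cells 8 and 3, 13 in cell 5 and 19 in cell 9. Cell 8 thus held ciliary, astrocyte and some neuron transcripts together, and whether its chamber held more than 1 cell was not tested.

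Over the whole table, 17 symbols had at least 10 molecules and at least 90% of them in cell 8, of which 4 are members (Dbi, Tmem212, Ccdc153 and Rarres2). The next by number of molecules were 1700094D03Rik with 19 in cell 8 and 1 elsewhere, Dynlrb2, Ezr with 16 and 1, Mia, Enkur, and Cd24a with 12 and 1. Ezr encodes ezrin, a linker of membrane and actin in microvilli, and Cd24a encodes a surface protein of ependymal cells. These genes were ranked by their counts in cell 8, so their concentration there is how they were found.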

How the data were processed

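PolyA RNA of 9 cells was amplified on a Fluidigm C1 instrument by 21 PCR cycles and fragmented by Tn5, per the labels' protocols. The counts in the single table that the authors deposited are whole numbers, called molecules here, for 24378 genes and 92 spike-ins. The submitters' processing notes name mm10 and Bowtie; the sources used here do not give the strand setting or how reads were collapsed. Columns were matched to cells by the cell number in their names. Where a symbol had several numbered loci, its highest count per cell was taken. Positions came from GENCODE M21 (GRCm38). Totals for levels left out spike-ins; counts got exact Poisson intervals, shares exact Clopper-Pearson intervals, and ratios the exact conditional interval. Thinned numbers are hypergeometric expectations. Cell 8 was set apart because earlier results showed ependymal markers there: members, lists and the comparison were chosen with earlier results of these data known. Named genes were the 5 markers, members with at least 3 molecules, up to 4 genes per list with most molecules in cell 8 and the 10 leading genes with at least 90% of their molecules there; other names were picked after their values were seen. Doublets were not called. The calling rule and thinning were tested on simulated data. Planted changes there lay in genes with more molecules than most members have, so the rule was not tested at low counts. Alternatives were other totals, loci, detection limits, depths, folds and leaving out cells. Scripts ran in Python 3.11.15 with scipy 1.17.1, numpy 2.4.6 and pandas 2.3.3, and figures were drawn with matplotlib 3.10.9.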

Additional observations from a re-analysis of the deposited data

Results flagged for a closer look

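Of 51 levels looked at over the 9 cells (34 genes with at least 3 molecules and 17 sums), 29 had 1 cell far above the rest, with a gap to the next cell above Dixon's 95% critical value when divided by the whole range. Chance flags about 1 in 20 such groups where the values are independent and normal, which these sparse counts of unequal depth are not, and the sums share genes with each other. The values are therefore a description, and nothing is read from how many there are. In 24 of the 29 the far cell was cell 8, whose counts were known when the members and lists were chosen. A gene with all its molecules in 1 cell gives a value of 1 by construction. The gap took the whole range (a value of 1) for Tmem212, Ccdc153, Rarres2, Dnah5 and Spef2 in cell 8, and for Dnah9 in cell 4. Among sums the values were 0.781 for axonemal genes, 0.862 without Spag5, Spag7 and Spag9, 0.971 for the markers, 0.966 for the markers without Dbi, and 0.864 for the further motile cilium genes. By group they were 0.856 for inner-arm heavy chains, 0.693 for smaller dynein subunits, 0.641 for radial spokes and 0.932 for the central pair. By gene in cell 8 they were 0.963 for Dbi, 0.863 for Dnah6, 0.632 for Dnaic1, 0.632 for Rsph1, 0.541 for Rsph4a, 0.917 for Spag6, 0.635 for Spag17, 0.579 for Ift20, 0.751 for Ift43 and 0.656 for Ift46.

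Another cell stood apart for 5 genes. These were Dnah9 in cell 4, Ift172 in cell 6 (0.842, on 4 molecules in a shallow cell), Ift81 in cell 9 (0.591), Rsph3a in cell 3 (0.797) and Bbs7 in cell 2 (0.554).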

How the results depend on the processing

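The axonemal and transport ratios stayed above equal levels when the processing changed, though most intervals of the transport ratio included equal levels. Some summed levels of cell 8 left their counting intervals. Scaling by spike-in molecules gave 72.5 axonemal molecules per 10000 and 301 marker molecules per 10000 in cell 8. The divisor there, the spike-in count of the cell scaled to the median gene total, is smaller than the gene molecules of cell 8. A total without mitochondrially encoded genes gave 275 for the markers, as that total is smaller by construction. The axonemal ratio was 12.2 without Spag5, Spag7 and Spag9, and 6.84 to 7.95 when any 1 of the other cells was left out; the transport ratio was then 1.38 to 1.82. Weighting the other cells equally gave 9.48 and 1.85. Without cells 4, 5 and 7, an alternative chosen after seeing the data, the ratios were 7.21 and 1.20, and without cells 1 and 6 they were 6.81 and 1.59. Spike-in scaling put the lower bound of the transport ratio at 1.06. The axonemal genes detected in cell 8 were 14 with at least 2 molecules and 11 with at least 3, and 12.2 and 4.88 were expected after thinning to 3393 and 1021 molecules; for transport genes these were 5, 2, 4.03 and 1.39. Fewer genes pass each of these by construction. The members above the fold were 15 to 22 over the other folds, minima and totals, and 17 to 22 when any 1 cell was left out. The ratio of Dbi was 151 without cell 5, outside its counting interval. No paired analysis was possible because all cells form 1 group. Genes with 1 or 2 molecules, 17 of the 51 detected members, are at the limit of this depth.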
